A study of Mus musculus with 12 samples.

Results

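Genes that encode BET proteins and the machinery around the elongation kinase P-TEFb were examined in mouse cells for binding of BRD2 and BRD3 themselves. They are Brd2 and Brd3, the P-TEFb subunit genes Cdk9, Ccnt1 and Ccnt2, and the genes Hexim1, Larp7 and Mepce of the complex that holds P-TEFb inactive. The 8 genes were taken by name from the 21887 protein-coding genes on chromosomes 1 to 19, X and Y, and a called region counted for a gene when it lay inside it or within 5 kb of either end. In all, 31 of the 16188 regions in the deposited lists met that rule, at 6 of the 8 genes.

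Chromatin immunoprecipitation with sequencing (ChIP-seq) had been done with BRD2 and BRD3 antibodies in Raw264.7 cells, a mouse macrophage line that can form osteoclasts, fixed in formaldehyde. The 4 conditions were 4 h of RANKL (50 ng/ml) with I-BET (500 nM), I-BET alone, RANKL alone, and no treatment. RANKL is a cytokine that drives osteoclast formation, and I-BET occupies the bromodomains of BET proteins. There was 1 library for each antibody and condition and 1 input library for each condition. The inputs have no list and were not used. No difference below has replicate error or a test, and the depth of the libraries is unknown, since the lists give position, width and a score and no read counts. A library averages many cells, so fewer bound cells and less binding per cell cannot be told apart.

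The lists held 245 BRD2 regions under RANKL with I-BET, 1067 under I-BET, 1716 under RANKL and 578 in untreated cells, and 2842, 2232, 3840 and 3668 BRD3 regions in the same order. More members can be called in a longer list, so counts by list in the main setting are set beside the share of all genes called. The labels name the source as bone marrow and the cells as a monocyte-derived line. Of 7 macrophage marker genes, 5 had a region in at least 1 list (Spi1, Csf1r, Cd68, Lyz2 and Ptprc), Itgam and Adgre1 had none, and none of 6 markers of other cell types had one. Lyz2 was called in 2 lists and Ptprc in 1. Of all genes, 28.3% had a region in at least 1 list. A called region is not a measure of expression.

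BET proteins read acetylated histones with paired bromodomains and take part in transcription at promoters and enhancers. P-TEFb is the kinase CDK9 with cyclin T1 or cyclin T2. It phosphorylates RNA polymerase II and the factors that hold the polymerase paused near the start of genes. A large part of P-TEFb sits in a complex on the small RNA 7SK, where HEXIM1 inhibits the kinase, LARP7 protects the RNA and MEPCE caps its end. In other cell systems BET inhibitors free P-TEFb from that complex, and HEXIM1 mRNA is widely used as a marker of BET inhibition.

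Promoter windows of 300 bases, from 250 before to 50 after a start, are printed here for the genes whose calls the results turn on, together with Cdk9, which had no call. They come from RefSeq on GRCm38.p6, which listed a start for 7 of the 8 genes and none for Mepce. Each reads 5′ to 3′ on the gene's own strand. Capitals mark matches on either strand to GCATGCGC (the core of the NRF1 motif), to CCAAT (the CCAAT box), to GGGCGG (the GC box), to CCGGAAG (an ETS motif), to TGACGTCA (the CRE) and to TATATA (a stretch like a TATA box). Where matches overlap, the capitals run on. The letters TATAAA and CACGTG (E-box) were sought too and stood in none of the members' windows. The first line is Hexim1 at chr11:103116075-103116374, plus strand.
Hexim1: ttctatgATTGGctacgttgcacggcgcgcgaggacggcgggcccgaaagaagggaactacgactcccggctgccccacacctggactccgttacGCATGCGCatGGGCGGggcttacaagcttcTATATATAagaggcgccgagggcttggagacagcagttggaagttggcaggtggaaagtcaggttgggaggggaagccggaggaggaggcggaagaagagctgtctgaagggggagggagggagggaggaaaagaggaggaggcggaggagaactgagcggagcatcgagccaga
The next is Ccnt2 at chr1:127773914-127774213, plus strand.
Ccnt2: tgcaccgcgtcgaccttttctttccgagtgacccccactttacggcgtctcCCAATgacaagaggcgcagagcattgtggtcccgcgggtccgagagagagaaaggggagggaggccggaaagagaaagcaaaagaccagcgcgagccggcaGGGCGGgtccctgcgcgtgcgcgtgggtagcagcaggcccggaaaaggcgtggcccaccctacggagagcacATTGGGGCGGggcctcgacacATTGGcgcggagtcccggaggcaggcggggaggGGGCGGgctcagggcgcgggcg
Brd2 has 3 listed starts, all on the minus strand. The most upstream, at 34122607, lies in chr17:34122558-34122857.
Brd2 upstream: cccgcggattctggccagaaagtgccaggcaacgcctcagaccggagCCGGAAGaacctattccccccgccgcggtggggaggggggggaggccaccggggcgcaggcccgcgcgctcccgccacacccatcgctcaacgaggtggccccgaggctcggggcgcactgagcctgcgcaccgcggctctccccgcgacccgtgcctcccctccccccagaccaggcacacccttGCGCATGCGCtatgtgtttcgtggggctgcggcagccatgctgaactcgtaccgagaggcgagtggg
The middle one, at 34121747, lies in chr17:34121698-34121997.
Brd2 middle: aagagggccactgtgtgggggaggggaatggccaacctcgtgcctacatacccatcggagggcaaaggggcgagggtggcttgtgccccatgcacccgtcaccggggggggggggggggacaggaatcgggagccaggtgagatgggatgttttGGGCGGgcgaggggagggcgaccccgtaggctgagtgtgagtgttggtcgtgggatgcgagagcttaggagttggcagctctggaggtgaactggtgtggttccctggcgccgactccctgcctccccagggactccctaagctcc
The Brd3 window is chr2:27475349-27475648, minus strand.
Brd3: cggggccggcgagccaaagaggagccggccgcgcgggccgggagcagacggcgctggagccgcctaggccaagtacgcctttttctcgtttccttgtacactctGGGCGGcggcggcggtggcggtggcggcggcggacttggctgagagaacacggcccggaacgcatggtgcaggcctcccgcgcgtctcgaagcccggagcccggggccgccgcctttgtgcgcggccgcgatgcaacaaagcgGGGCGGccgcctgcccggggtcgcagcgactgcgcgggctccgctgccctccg
The Cdk9 window is chr2:32712735-32713034, minus strand.
Cdk9: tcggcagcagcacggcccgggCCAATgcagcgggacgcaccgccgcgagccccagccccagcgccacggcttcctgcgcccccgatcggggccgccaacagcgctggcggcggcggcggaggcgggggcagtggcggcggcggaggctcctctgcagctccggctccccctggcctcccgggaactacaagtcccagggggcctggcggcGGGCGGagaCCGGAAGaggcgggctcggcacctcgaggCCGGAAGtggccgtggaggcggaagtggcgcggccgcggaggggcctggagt

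The windows of genes with and without calls lay above the median of all windows in G and C. The Cdk9 window had 78.3% G or C and 39 CpG pairs, Larp7 had 61.7% and 30, Hexim1 61.0% and 21, Ccnt2 68.3% and 32, the upstream Brd2 window 72.3% and 32, and the middle one 66.0% and 14. The most downstream Brd2 window, which is not printed, had 58.7% and 24. The median over 21263 windows of protein-coding genes was 56.3% and 13 pairs. Their 25th to 75th percentiles ran from 48.3% to 64.7% and from 4 to 24 pairs, and the Hexim1 window lay within both ranges. A GC box stood in 8 of the 9 member windows and in 46.2% of all windows, and CCAAT in 4 of the 9 and in 38.2%. The NRF1 core stood in the windows of Hexim1 and upstream Brd2 and in 3.52% of all windows. TATATA stood in Hexim1 alone among the members and in 5.54% of all, CCGGAAG in 3 of the 9 and in 11.6%, and TGACGTCA in Larp7 alone and in 2.23%. TATAAA stood in 12.6% of all windows and CACGTG in 7.84%. These matches are descriptions of letters and not binding sites.

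**Figure D1:**
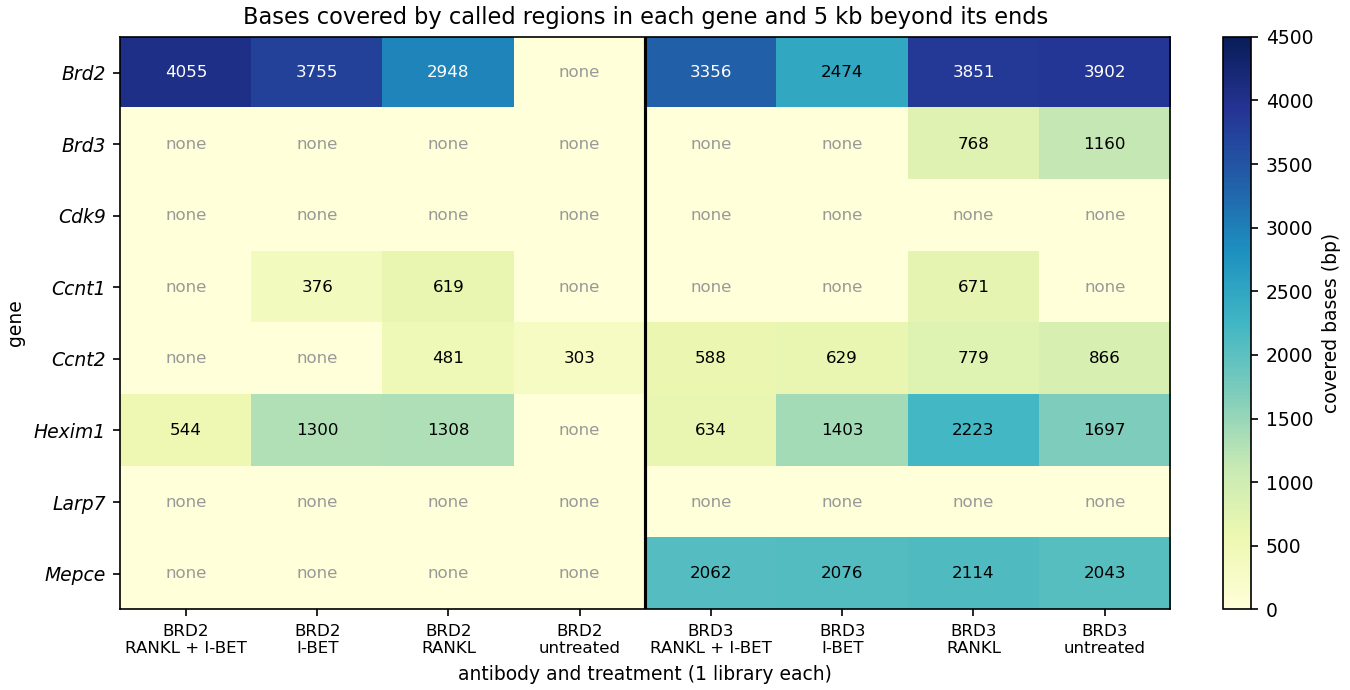
Bases covered by called regions in each of the 8 genes and the 5 kb beyond its ends (colour and printed number, bp), by antibody and condition, 1 library each. Brd2 and Hexim1 had coverage in 7 of 8 lists, Mepce in the 4 BRD3 lists, and Cdk9 and Larp7 in none.

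Seen over the lists, Brd2 and Hexim1 had calls for both proteins in every condition except untreated cells, where only BRD3 was called. These BRD2 calls depended on the lists. In lists of equal length by score, Brd2 kept BRD2 only under RANKL with I-BET, and Hexim1 lost it under I-BET. With the top 50% of each list by score, Brd2 was in none. Mepce had BRD3 calls in all 4 conditions and no BRD2 call. Ccnt2 had BRD3 calls in all 4 conditions, with BRD2 calls in the 2 without I-BET. Brd3 had BRD3 calls under RANKL and in untreated cells. Cdk9 and Larp7 had no region of either protein in any list, as did 15698 of all genes (71.7%). BRD2 regions were called at 2 of 8 members under RANKL with I-BET (1.34% of all genes), 3 under I-BET (5.40%), 4 under RANKL (8.85%) and 1 in untreated cells (3.04%). BRD3 regions were called at 4 under RANKL with I-BET (16.0% of all genes), 4 under I-BET (13.0%), 6 under RANKL (19.0%) and 5 in untreated cells (18.9%). All genes here include silent ones, and expression is not in these files. A BRD3 call in all 4 conditions was held by 4 of the 8 members and by 10.4% of all genes. With lists of equal length by score, or with the top 50% of each list, 1 member held it, Hexim1. The share of all genes with such a call was not computed under those settings.

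**Figure D2:**
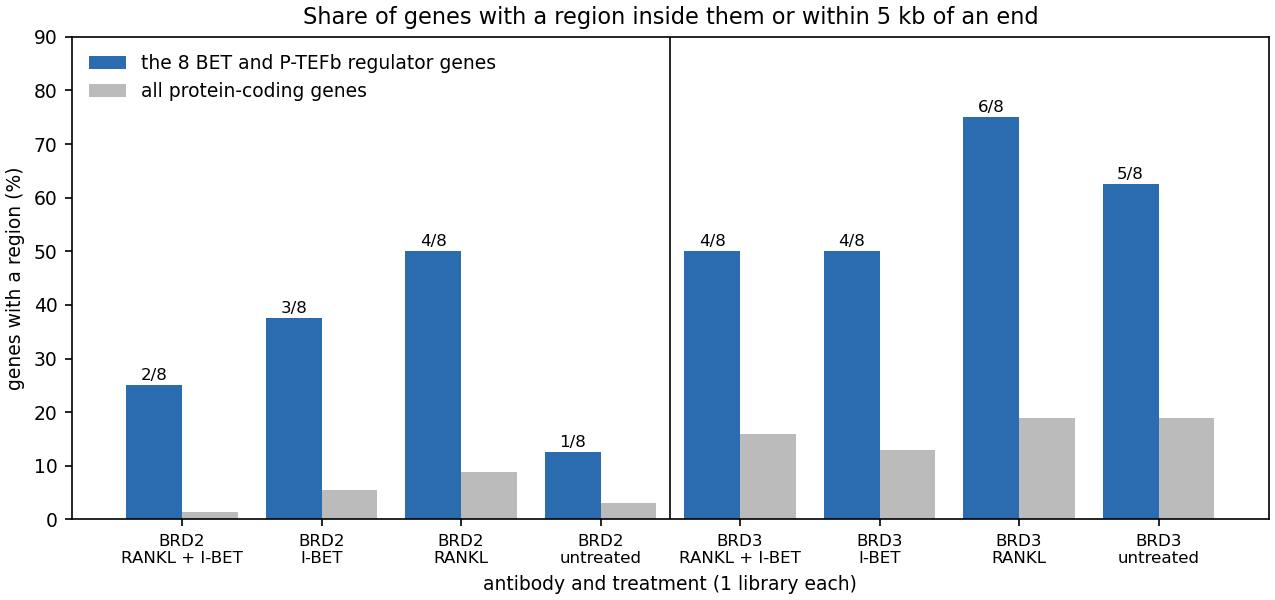
Share of genes (%) with a region inside them or within 5 kb of an end, by antibody and condition, for the 8 genes (blue, count printed) and all protein-coding genes (grey). The blue bar is above the grey one in each list, at 2 of 8 genes against 1.34% under RANKL with I-BET for BRD2 and at 6 of 8 against 19.0% under RANKL for BRD3. A call at 1 of the 8 genes is already 12.5%, above the grey bar of each BRD2 list. For BRD2 any call at all therefore puts the blue bar above the grey one.

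Hexim1, the inhibitor gene, lies on chromosome 11 (103116325 to 103119725, plus strand, 3401 bp). BRD3 covered its start in every condition. The BRD3 region measured 634 bp under RANKL with I-BET, 1403 bp under I-BET, 2223 bp under RANKL and 1697 bp in untreated cells. Nearly all of the difference lay upstream of the start. The region reached 470 bp before the start under RANKL with I-BET, 1093 bp under I-BET, 2081 bp under RANKL and 1615 bp in untreated cells, while it ended 163, 309, 141 and 81 bp past the start in the same order. With I-BET present, the upstream edge thus lay nearer to the start in both conditions than in the 2 without it.

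The Hexim1 ratio of RANKL with I-BET to RANKL was 0.285 in covered bases. Over the 3106 genes called in both BRD3 lists the median ratio was 0.924, and 0.285 lay at the 3.12th percentile of them. Against I-BET alone the ratio was 0.452, at the 2.08th percentile of 2693 genes with a median of 0.955. I-BET against untreated gave 0.827 (30.2nd percentile, median 0.979) and RANKL against untreated 1.31 (84.4th percentile, median 1.01). Each ratio compares 1 library with 1 library, and comparisons that share a list are not independent of each other.

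BRD2 at Hexim1 was called upstream of the promoter window and not at the start. Its regions were 544 bp wide under RANKL with I-BET (103114740 to 103115283), 1300 bp under I-BET (103114568 to 103115867) and 1308 bp under RANKL (103114569 to 103115876). They ended 1042, 458 and 449 bp before the start, in that order. The I-BET and RANKL regions of BRD2 thus differed by 1 bp at one edge and 9 bp at the other, and the region with both agents lay within each of them. Untreated cells had no BRD2 region there. Under RANKL with I-BET the BRD2 and BRD3 regions did not overlap and lay 571 bp apart. Under I-BET they shared 636 bp, and under RANKL the BRD3 region contained the whole BRD2 region.

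**Figure D3:**
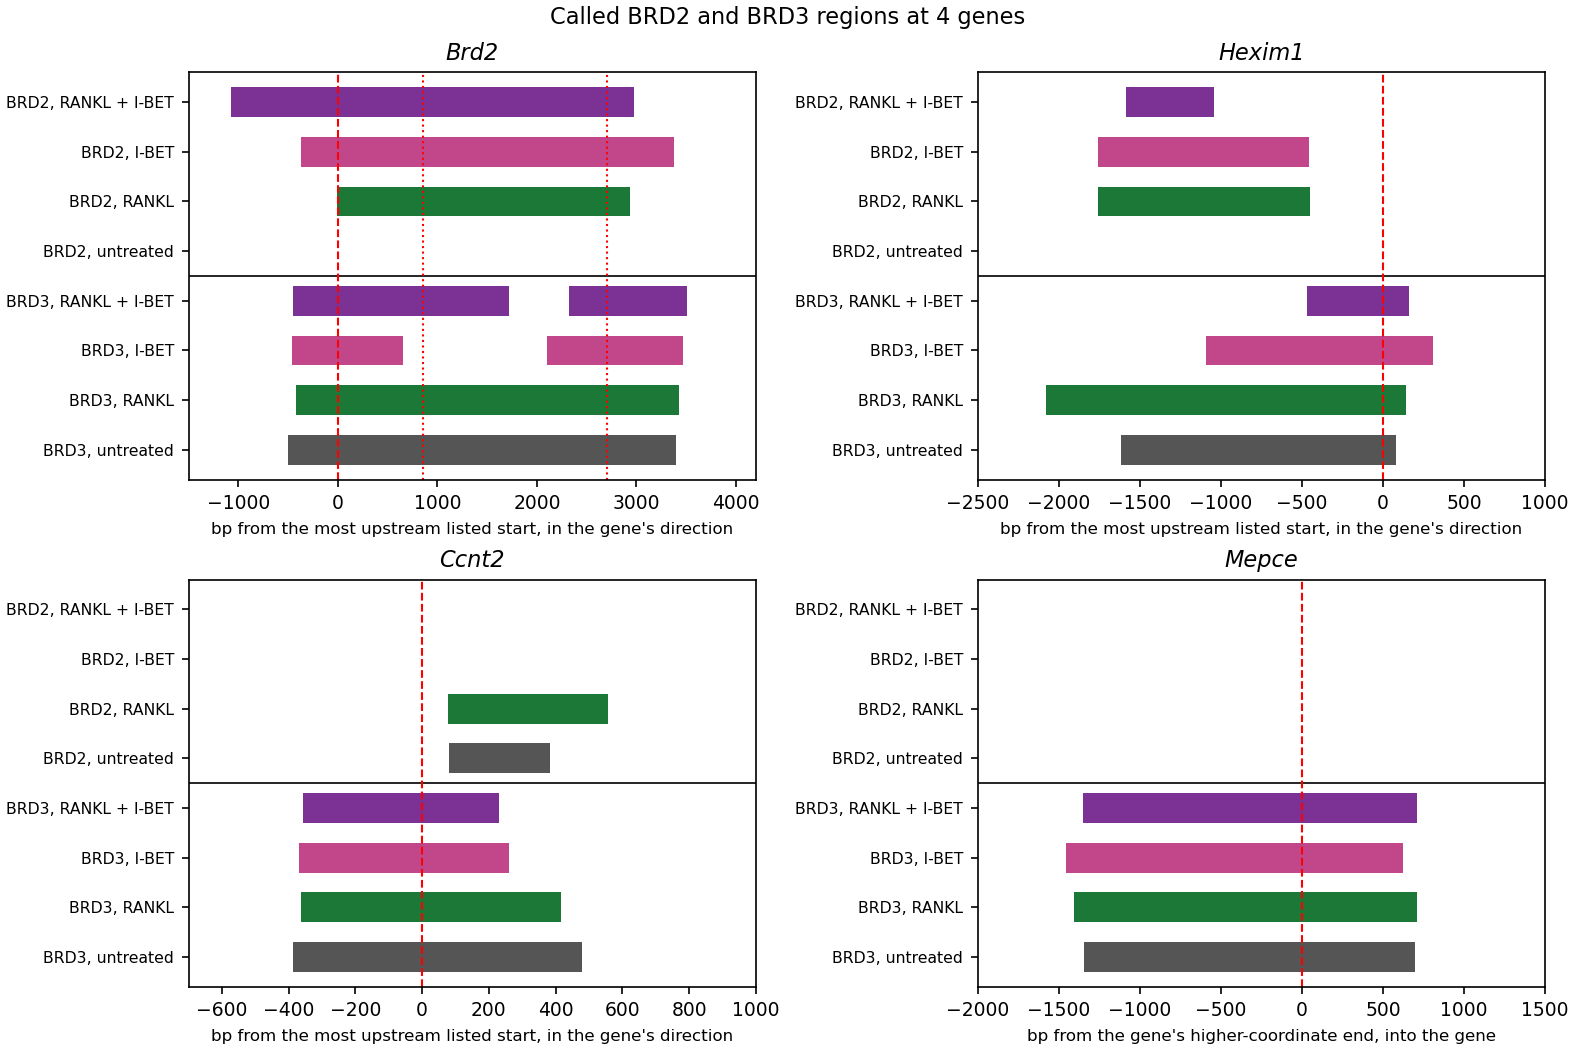
Called regions (bars) at Brd2, Hexim1, Ccnt2 and Mepce by antibody and condition, as distance in bp from the most upstream listed start in the gene's direction, or for Mepce from its higher-coordinate end. Dashed lines mark that point and dotted lines the other Brd2 starts. The BRD3 bar of Hexim1 is shorter on its upstream side with I-BET, and the BRD3 bar of Brd2 is in 2 pieces with I-BET.

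Mepce, the capping enzyme gene (chromosome 5, 137781906 to 137786701), had the region whose width varied least between conditions among the members with BRD3 in all 4. Its BRD3 region was 2062 bp wide under RANKL with I-BET (137785990 to 137788051), 2076 bp under I-BET, 2114 bp under RANKL and 2043 bp in untreated cells. No BRD2 region lay nearer than 248405 bp. The region spanned the higher-coordinate end of Mepce, with 30.0% to 34.5% of it inside the gene, and covered in each list the start of Zcwpw1 at 137787331. It cannot be assigned to either gene. Under RANKL, covered bases with I-BET were 0.975 times those without it (61.8th percentile of genes in both lists, median 0.924). For I-BET against untreated cells the ratio was 1.02 (56.1st percentile, median 0.979). Its width stood at the 99.7th percentile of all regions under RANKL with I-BET and the 99.3rd under I-BET, against the 92.6th in the RANKL list and the 92.6th in the untreated list. Its scores were low for their lists, at the 35.7th percentile under RANKL with I-BET, the 13.9th under I-BET, the 20.4th under RANKL and the 39.4th in untreated cells, and it was in none of the lists limited to the top 50% by score.

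Larp7, the gene of the protein that protects 7SK (chromosome 3, 127536714 to 127553349, minus strand), had no region. The nearest BRD3 region was 283847 bp away, under RANKL with I-BET, and the nearest BRD2 region 283872 bp away, under RANKL. In untreated cells the nearest BRD3 region was 2059278 bp away.

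Brd2 (chromosome 17, 34112019 to 34122814, minus strand) had a BRD2 region in 3 of 4 conditions and BRD3 regions in all 4. The BRD2 region was 4055 bp wide under RANKL with I-BET (34119631 to 34123685), 3755 bp under I-BET (34119227 to 34122981) and 2948 bp under RANKL (34119672 to 34122619), and each spanned all 3 listed starts. No BRD2 region was called in untreated cells. The 4055 bp region was the widest of the 245 in its list, where the median was 612 bp. Its ratio to the RANKL region was 1.38, at the 98.4th percentile of 192 genes called in both lists, whose median ratio was 0.649. Against I-BET alone the ratio was 1.08, at the 90.1st percentile of 181 genes with a median of 0.682. Scores of the BRD2 regions at Brd2 were below the median of their lists, at the 47.3rd percentile under RANKL with I-BET, the 15.2nd under I-BET and the 43.0th under RANKL.

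BRD3 at Brd2 was called as 1 region without I-BET and as 2 regions with it. Under RANKL the region ran from 34119182 to 34123032 (3851 bp) and in untreated cells from 34119211 to 34123112 (3902 bp). With RANKL and I-BET together the pieces were 1182 bp and 2174 bp, with a gap of 601 bp that held no listed start. Under I-BET alone they were 1361 bp and 1113 bp, with a gap of 1449 bp that held the middle start at 34121747. Of the 300 bases printed above for that start, 45 were in a BRD3 region under I-BET and 300 in each other BRD3 list. The upstream window was covered in full by BRD3 in all 4 conditions. Scores of the BRD3 pieces were low for their lists, at the 4.57th and 15.5th percentile under I-BET and the 23.7th and 28.6th under RANKL with I-BET. Those of the unbroken regions were at the 34.7th percentile under RANKL and the 26.0th in untreated cells. By summed bases the BRD3 ratio was 0.871 for RANKL with I-BET over RANKL (39.4th percentile, median 0.924 over the 3106 genes called in both lists) and 0.634 for I-BET over untreated (17.1st percentile, median 0.979 over 2525 genes called in both). BRD2, in its own library under I-BET, was called as 1 unbroken region across the gap. The start of the neighbouring gene H2-DMa, at 34122832 on the other strand, lay inside 6 of the 9 regions of either protein, so they cannot be given to Brd2 alone.

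Brd3 (chromosome 2, 27445576 to 27507657, minus strand) had a BRD3 region at different places in the 2 lists that called it. In untreated cells it was 1160 bp wide (27475050 to 27476209) and covered the listed start and the whole printed window. Under RANKL it was 768 bp wide (27503516 to 27504283) and reached 28885 bp before that start and ended 28118 bp before it, inside the gene record. The RANKL region had a score of 674.7, at the 99.1st percentile of its list, and the untreated one 127.7, at the 83.3rd. No region of either protein was called in the gene or its 5 kb with I-BET present, and none of BRD2 in any condition. The nearest BRD3 region lay 7258 bp away under RANKL with I-BET and 32472 bp away under I-BET.

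Ccnt2, the cyclin T2 gene (chromosome 1, 127774164 to 127804837, plus strand), had a BRD3 region over its start in each list. The width was 588 bp under RANKL with I-BET, 629 bp under I-BET, 779 bp under RANKL and 866 bp in untreated cells. The upstream edge lay 358, 368, 364 and 388 bp before the start in the same order, and the downstream edge 229, 260, 414 and 477 bp past it. The regions with I-BET were thus shorter on the downstream side. The ratio for RANKL with I-BET over RANKL was 0.755 (25.6th percentile of all genes in both lists) and for I-BET over untreated 0.726 (22.4th percentile). The BRD3 region scored 334.3 under RANKL, at the 90.4th percentile of its list, and 91.0 under I-BET, at the 76.0th. It scored 46.0 under RANKL with I-BET, at the 4.17th, and 36.3 in untreated cells, at the 3.37th.

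BRD2 at Ccnt2 was called just inside the gene, in the stretch that BRD3 regions with I-BET only partly reached. It ran from 77 to 557 bp past the start under RANKL (481 bp) and from 80 to 382 bp past it in untreated cells (303 bp). No BRD2 region was called with I-BET, alone or with RANKL. Both BRD2 regions were narrow for their lists, at the 10.3rd and the 1.38th width percentile. The start of the non-coding gene 2900009J06Rik, at 127774054 on the other strand, lay inside the 4 BRD3 regions and outside both BRD2 regions.

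Ccnt1, the cyclin T1 gene (chromosome 15, 98538690 to 98567736, minus strand), had no region inside it or at its start. Its calls rest on regions 4330 to 4382 bp beyond its lower-coordinate end, which is its 3′ end. These were a BRD2 region of 376 bp under I-BET (98533956 to 98534331), a BRD2 region of 1417 bp under RANKL (98532892 to 98534308) and a BRD3 region of 997 bp under RANKL (98533364 to 98534360). Each of the 3 covered the start of Kansl2 at 98534269. Cdk9, the kinase gene (chromosome 2, 32705782 to 32712784, minus strand), had no region, and the nearest of any list was 118519 bp away, of BRD3 under I-BET. None of the P-TEFb subunit genes other than Ccnt2 thus had a region at its own start.

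Regions that contain a listed start were found at fewer members. BRD2 contained a start of 1 of 7 members, Brd2, under RANKL with I-BET (0.686% of 17492 genes), under I-BET (3.34%) and under RANKL (5.33%), and of none in untreated cells (2.00%). BRD3 contained a start of Brd2, Ccnt2 and Hexim1 under RANKL with I-BET (11.0% of genes), I-BET (9.30%) and RANKL (12.5%), and of these and Brd3 in untreated cells (13.2%).

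For RANKL against untreated, BRD2 regions were called at Brd2, Ccnt1 and Hexim1 under RANKL and not in untreated cells (7.11% of all genes), at Ccnt2 in both, and at no member in untreated cells only (1.30%). At Ccnt2 the BRD2 region covered 481 bp under RANKL and 303 bp in untreated cells. BRD3 in the same comparison was called at Ccnt1 under RANKL only (3.84% of all genes), at no member in untreated cells only (3.78%), and at Brd2, Brd3, Ccnt2, Hexim1 and Mepce in both. Of all genes called in untreated cells, 57.1% were called under RANKL for BRD2 and 80.0% for BRD3. At Brd3 the regions of these lists did not overlap. The ratio of covered bases lay between 0.662 (Brd3) and 1.31 (Hexim1), against a middle range (25th to 75th percentile) of 0.816 to 1.18 over 3312 genes.

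For I-BET against untreated, BRD2 was called under I-BET only at Brd2, Ccnt1 and Hexim1 (3.92% of all genes), and in untreated cells only at Ccnt2 (1.56%). Ccnt2 was the 1 member with BRD2 in untreated cells. Of all genes with BRD2 in untreated cells, 48.7% had it under I-BET. BRD3 was called at Brd2, Ccnt2, Hexim1 and Mepce in both lists, at no member under I-BET only (1.47%), and at Brd3 in untreated cells only (7.37%). Of all genes with BRD3 in untreated cells, 61.0% had it under I-BET.

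With I-BET added to RANKL, BRD2 was called at Brd2 and Hexim1 in both lists, at Ccnt1 and Ccnt2 under RANKL only (7.97% of all genes), and at no member with both agents only (0.466%). Of all genes with BRD2 under RANKL, 9.91% had it with both agents. BRD3 was called at Brd2, Ccnt2, Hexim1 and Mepce in both, at Brd3 and Ccnt1 under RANKL only (4.78%), and at no member with both agents only (1.77%). Of all genes with BRD3 under RANKL, 74.8% had it with both.

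With RANKL added to I-BET, BRD2 was called at Brd2 and Hexim1 in both lists, at Ccnt1 under I-BET only (4.57% of all genes), and at no member with both agents only (0.516%). BRD3 was called at the same 4 genes in both (Brd2, Ccnt2, Hexim1 and Mepce), with no member on either side alone (3.66% of all genes with both agents only and 0.704% under I-BET only). Of all genes called under I-BET, 15.3% were called with both agents for BRD2 and 94.6% for BRD3. The summed BRD3 bases at Brd2 were 3356 bp with both agents and 2474 bp under I-BET, and those at Hexim1 634 bp and 1403 bp.

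Regions of both BRD2 and BRD3, overlapping or not, were called at Brd2 and Hexim1 under RANKL with I-BET (0.480% of all genes) and under I-BET (1.56%). At Hexim1 under RANKL with I-BET they did not overlap and lay 571 bp apart. Under RANKL both proteins had regions at Brd2, Ccnt1, Ccnt2 and Hexim1 (4.40%), and in untreated cells at Ccnt2 (1.69%). Those at Ccnt1 lay outside the gene, over the start of Kansl2. The BRD2 region at Ccnt2 in untreated cells lay wholly inside the BRD3 region and took up 35.0% of it. Of the BRD2 region at Brd2 under RANKL, 100% was inside the BRD3 region, which it filled to 76.6%.

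**Figure D4:**
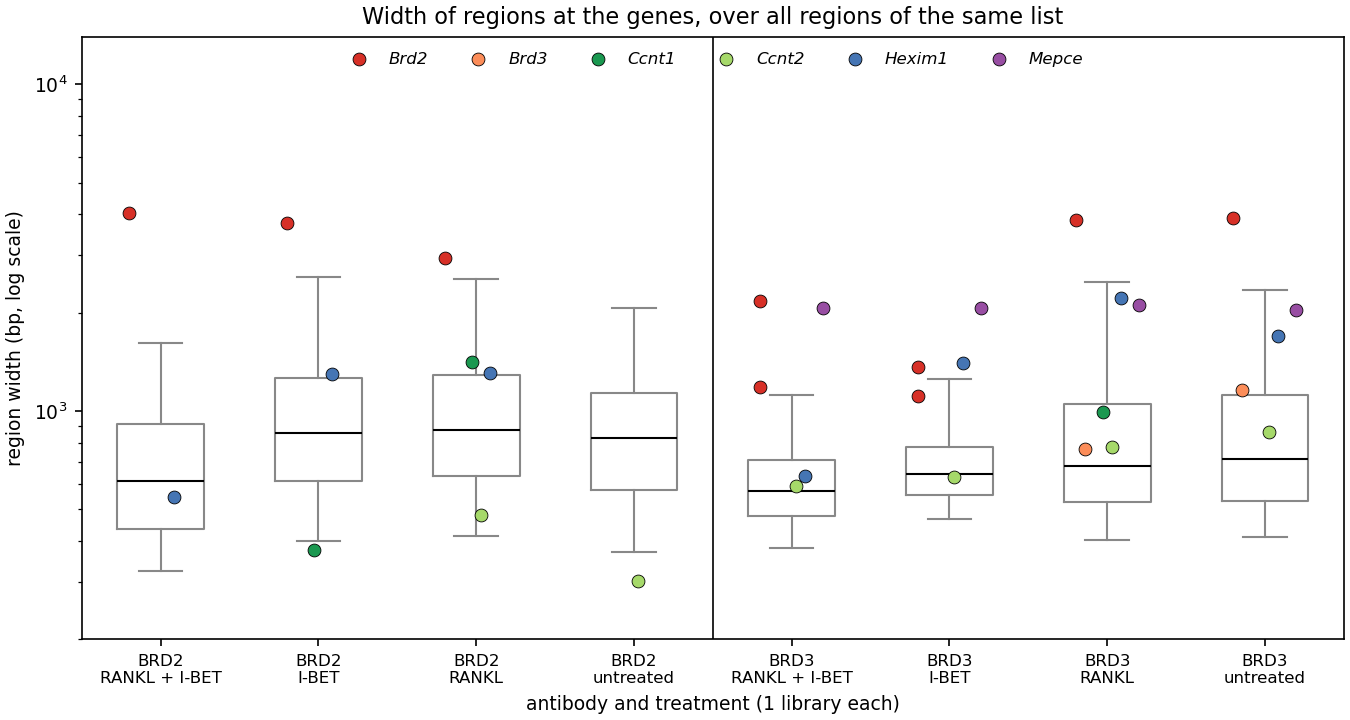
Width of each region at the 8 genes (points, bp, log scale) over all regions of its list (box, 25th to 75th percentile with the median; whiskers, 5th to 95th percentile), by antibody and condition. Brd2 and Mepce points lie high in each BRD3 list, while Ccnt2 points lie low in the BRD2 lists.

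BRD3 regions at the members were wide for their lists. Their median was 1182 bp under RANKL with I-BET against 571 bp over all regions, 1361 bp against 640 bp under I-BET, 1555.5 bp against 679 bp under RANKL and 1697 bp against 712 bp in untreated cells. The number above the median of their list was 5 of 5, 4 of 5, 6 of 6 and 5 of 5 in that order. In each BRD3 list with I-BET, 2 of the 5 are the pieces at Brd2. All regions of a list were used for comparison, and the median over regions near genes alone was not computed. Median scores of the members were 89.7, 47.7, 96.3 and 63.3, against 139, 68.7, 114 and 74.7 over all regions. The score is the authors' own value for a region, with a meaning not given in the sources used here. For BRD2 the median width was 2299.5 bp against 612 bp over all regions under RANKL with I-BET, 1300 bp against 858 bp under I-BET, 1362.5 bp against 877 bp under RANKL and 303 bp against 828 bp in untreated cells. The number above the median of their list was 1 of 2, 2 of 3, 3 of 4 and 0 of 1 in that order.

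Among 30 further genes of BET, 7SK, pausing and transcription kinase function, 14 had a region in at least 1 list (46.7%, against 28.3% of all genes). Of the BET genes and partners, Brdt and Atad5 had none. Nsd3, Jmjd6 and Chd4, which encode partners of BET proteins or chromatin enzymes, each had a BRD2 region under RANKL only. It lay 3873 bp outside Nsd3 and 1060 bp outside Chd4, and overlapped Jmjd6. Hexim2, the paralogue of Hexim1 that lies next to it, had BRD2 regions of 637 bp under I-BET and 738 bp under RANKL and a BRD3 region of 1354 bp in untreated cells, all inside the gene. The 7SK RNA gene itself, Rn7sk, had none.

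Of the super elongation complex genes, whose products carry P-TEFb to paused polymerase, Mllt3 had BRD3 in all 4 conditions, at 537, 521, 563 and 475 bp. Ell had BRD3 in the 2 I-BET conditions and in untreated cells, and Mllt1 in untreated cells. Aff1, Aff4, Ell2, Ell3, Eaf1 and Eaf2 had none. Of the pausing factor genes, Nelfcd had BRD3 in the 2 I-BET conditions, Supt4a in these and under RANKL, Nelfe under RANKL, and Nelfb under RANKL and in untreated cells, while Nelfa and Supt5 had none. Nelfb and Supt4a also had BRD2 under RANKL. The Supt4a BRD2 region lay 4926 bp outside the gene, with 75 bp in the window, while a Nelfb BRD2 region of 665 bp overlapped its gene. The Nelfb BRD3 regions lay 2846 bp outside the gene under RANKL and 2862 bp outside it in untreated cells. Of the other kinase and cyclin genes, Cdk12 had BRD2 under I-BET (1032 bp) and in untreated cells (1062 bp), and Ccnc under RANKL (877 bp) and in untreated cells (936 bp). Cdk8 had BRD2 under I-BET and BRD3 under RANKL with or without I-BET. The kinase genes Cdk7 and Cdk13 had none, as did the cyclin genes Ccnh and Ccnk and Mnat1. By list these 30 genes numbered 0, 3, 7 and 2 for BRD2 and 5, 4, 5 and 5 for BRD3, under RANKL with I-BET, I-BET, RANKL and no treatment. That is 0%, 10%, 23.3% and 6.67% for BRD2, against 1.34%, 5.40%, 8.85% and 3.04% of all genes. For BRD3 it is 16.7%, 13.3%, 16.7% and 16.7%, against 16.0%, 13.0%, 19.0% and 18.9% of all genes, so the BRD3 shares were near or below the background.

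The genes most like each member were sought by the distance between covered bases on a log2(1 + bp) scale over the 8 lists. The call pattern of Brd2 and Hexim1 over the lists, which is the same for both, was shared by 20 other genes, 1 of which is then the other member. Arhgdia (distance 2.78) and Tmem116 (2.99) were nearest to Brd2, and Rpl14 (1.67) and Eed (1.74) to Hexim1. The Ccnt2 pattern was held by 32 other genes, with Insig2 (0.565) and Nprl3 (1.31) nearest. For Mepce it was held by 1626 others, and Fancm and Fkbp3, which share a region, were nearest at 0.0783. The Ccnt1 pattern was held by 32 others, with Nuf2 (0.759) and Dnajc7 (1.06) nearest.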

How the data were processed

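Each of the 8 lists gives, per the deposited files, a region's chromosome, start, end, joined peak names and score. Per the submitters' processing notes, the tools were Bowtie2 2.3.4.1 with MACS2 2.1.1.20160309 and FastQC, and the build was mm10/GRCm38. No settings are given. Each region at the members joins 1 peak from each of 3 peak sets. Whether these sets are replicates or caller settings is unknown here. The deposited score was set by the authors. It served to rank regions within a list and is also printed as deposited. Whether scores can be compared between lists is unknown here.

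Gene positions came from a RefSeq table of GRCm38.p6 and starts and strands from its promoter table, with positions counted from 1. Overlap was at least 1 bp. Covered bases are those of the gene and 5 kb beyond each end that lie in a region, and widths are of whole regions. Python 3.11.15, pandas 2.3.3 and numpy 2.4.6 were used, and the counting was tested on simulated regions. The 8 genes, the further lists and the settings were chosen with earlier results of these data known. A gene of those lists is not reported here. All members were named, and further genes when they had a region or belonged to a list. With 1 library a group no test was made. Alternatives were other windows, midpoints, higher scores, equal list lengths within each antibody and stricter overlap.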

Additional observations from a re-analysis of the deposited data

Results flagged for a closer look

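At 3 genes the covered bases differed in opposite directions for the antibodies in the same comparison, and these differences were not tested, since each value is from 1 library. Any opposite sign counted, however small, and the share of all genes with opposite signs was not computed. Brd2 and Hexim1 had no BRD2 region in untreated cells, so their BRD2 values against untreated cells are the whole covered stretch. In untreated cells BRD3 covered 3902 bp at Brd2 and 866 bp at Ccnt2. At Brd2, I-BET minus untreated was 3755 bp for BRD2 and -1428 bp for BRD3. RANKL with I-BET minus RANKL was 1107 bp for BRD2 and -495 bp for BRD3 at the same gene, and RANKL minus untreated 2948 bp and -51 bp. Hexim1 gave 1300 bp for BRD2 and -294 bp for BRD3 for I-BET minus untreated. Ccnt2 gave 178 bp for BRD2 and -87 bp for BRD3 for RANKL minus untreated. The BRD2 lists held 1067 regions under I-BET and 1716 under RANKL against 578 in untreated cells, and the BRD3 lists 2232 and 3840 against 3668. In lists of equal length by score, BRD2 was called at no member under I-BET, at Ccnt1 and Hexim1 under RANKL, at Brd2 and Hexim1 under RANKL with I-BET and at Ccnt2 in untreated cells. The BRD2 regions at Brd2 under I-BET and RANKL, at Hexim1 under I-BET and at Ccnt2 under RANKL were thus not in those lists.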

How the results depend on the processing

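Of 246 recomputed values, 175 stayed within 1.5 times the reported one and 71 did not. Cdk9 and Larp7 had no region under any alternative. Placing the midpoint of a region in the window moved no value by that much. It dropped Ccnt1 from BRD2 under RANKL (3 members against 4, with 8.64% of all genes called). That left 3 members with both antibodies there against 4. With windows of 1 kb, Ccnt1 dropped from every list and Hexim1 from BRD2 under RANKL with I-BET, which left 1 member and 1 region there with a width of 4055 bp, and a median width of 2527.5 bp for BRD2 under I-BET. Of all genes, 1.12% were called with that window for BRD2 under RANKL with I-BET and 4.63% under I-BET. Members in both lists then numbered 1 in each of the 3 comparisons that use BRD2 under RANKL with I-BET. The share of all genes called in both lists was not computed under any alternative. With windows of 10 kb, Brd3 joined the BRD3 list of RANKL with I-BET (18.4% of all genes), and the median width for BRD3 under RANKL was 997 bp.

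Keeping the top 50% of each list by score removed Brd2 and Mepce from every list. Members with BRD3 in all 4 conditions numbered 1, Hexim1, here and in lists of equal length, and the matching share of all genes was not computed. Members called, and their regions, then numbered 0 for BRD2 under RANKL with I-BET and 0 under I-BET, and for BRD3 1 under RANKL with I-BET (median width 634 bp), 2 under I-BET, 3 under RANKL (779 bp) and 2 in untreated cells. All genes called were 0.667%, 2.7%, 4.44% and 1.46% for BRD2 and 8.17%, 6.75%, 9.59% and 9.79% for BRD3 under RANKL with I-BET, I-BET, RANKL and no treatment. For BRD2, members in both lists numbered 0 for RANKL with I-BET against RANKL and 0 against I-BET. For BRD3 they numbered 2 for RANKL against untreated and 1 in each of the other 3 comparisons of conditions. Between the antibodies they numbered 0 under RANKL with I-BET, 0 under I-BET, 2 under RANKL and 0 in untreated cells.

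Lists of equal length, by score, left 0 members and 0 regions for BRD2 under I-BET and 2 and 2 under RANKL, and for BRD3 3 and 3 under RANKL (median width 779 bp) and 3 and 3 in untreated cells. All genes called were 1.23% for BRD2 under I-BET, 1.27% under RANKL and 1.23% in untreated cells, and for BRD3 11.3% under RANKL and 11.9% in untreated cells. Members in both BRD2 lists numbered 0 for RANKL against untreated, 1 for RANKL with I-BET against RANKL and 0 against I-BET, and in both BRD3 lists 2 for RANKL against untreated, 2 for I-BET against untreated and 1 for RANKL with I-BET against RANKL. Between the antibodies they numbered 0 under I-BET, 1 under RANKL and 0 in untreated cells. Lengths were made equal within each antibody only, at 245 regions for BRD2 and 2232 for BRD3. The counts between the antibodies thus still compare lists of different length. Shorter lists hold fewer genes by construction. Requiring the regions themselves to overlap by 1 bp left 1 member with both antibodies under RANKL with I-BET. Overlap by 50% of each region left 1 there, 1 for BRD2 in each comparison of RANKL with I-BET, 0 for the antibodies under I-BET and 0 in untreated cells.

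No paired analysis was possible because each antibody and condition has 1 library. The depth of the libraries is unknown, so a missing call does not show that a protein was absent.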
